A study of Homo sapiens with 4 samples.

Results

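The genes described here are 9 genes of the epithelial tight junction: CXADR, CLDN1, CLDN3, CLDN4, CLDN7, OCLN, TJP1, F11R and CGN. They were taken by name from the 35211 genes of the deposited count table. CXADR was picked because its counts were lower with the circ0003553 plasmid than with the control plasmid in both cell lines, so that comparison is given for CXADR as a description with no test, and the other 8 genes were added as its junction partners. RNA was measured in PC3 and DU145, 2 established lines of human prostate cancer. Either line received a plasmid overexpressing circ0003553, which is a circular RNA that the sample titles tie to the gene RCAN3, or a negative control plasmid. The 4 groups were thus PC3 with circ0003553, PC3 with the control plasmid, DU145 with circ0003553 and DU145 with the control plasmid, with 1 library each and no other treatment, clone or time given in the labels.

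Tight junctions seal the space between neighbouring epithelial cells near their apical side and separate apical from basolateral membrane. Claudins and the MARVEL protein occludin are tetraspan membrane proteins that form the strands, immunoglobulin-type receptors such as CXADR and F11R stand beside them, and cytoplasmic scaffolds such as ZO-1 and cingulin link them to actin and to RhoA signalling. CXADR is also the receptor through which coxsackie B viruses and many adenoviruses attach to cells. In prostate epithelium these proteins belong to the barrier that is often altered in carcinoma.

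Counts assigned to genes totalled 33438509 to 39488890 per library, and 3 counts, taken here as the floor of detection, corresponded to 0.0760 to 0.0897 CPM, the counts scaled to library size. Mitochondrially encoded genes took 4.96% to 6.88% of the counts. The lines matched a known feature: CTNNA1, the alpha-catenin gene lost in PC3, had 212 and 139 counts in the PC3 libraries, against 15131 and 15074 in the DU145 libraries. Epithelial markers (EPCAM, KRT8, KRT18, KRT19 and CDH1) were all detected, with summed levels of 1190 and 1216 CPM in PC3, against 5199 and 4561 CPM in DU145. The prostate luminal marker TMPRSS2 was near 0 in every library, at 0 to 10 counts, and KLK2 and KLK3 were not analysed here. Of the markers of other cell types, the 5 endothelial genes summed to 56.3 and 64.4 CPM in PC3, against 1.10 and 0.473 CPM in DU145, through KDR and PECAM1, while CDH5 and VWF stood at 0 to 14 counts. The 6 fibroblast genes summed to 39.5 and 35.2 CPM in PC3, against 3.89 and 5.78 CPM in DU145, with DCN at 0 to 2 counts. The 4 listed leukocyte genes in the table summed to 515 and 427 CPM in PC3, against 274 and 203 CPM in DU145, with PTPRC at 0 to 2 counts. The part of these markers in the line differences below was not tested.

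The question put to the 9 genes first was how their levels differ between the lines. This contrast was not the rule that chose them, although earlier results of these data were known when they were chosen. All 4 libraries entered 1 fit with cell line and plasmid as terms, so each line is represented by 2 libraries. By the edgeR quasi-likelihood F test, with p-values adjusted over 21731 tested genes (Benjamini-Hochberg), 3 of the 9 genes were higher and 6 were lower in PC3 than in DU145 at an adjusted p under 0.05. All 9 had passed the filter on low counts, but CLDN1, with 8 and 2 counts in PC3, passed through its DU145 counts alone. Its call is therefore partly set by the filter. The lines differ widely: 33.1% of all tested genes were called higher and 32.9% lower in PC3, or 66% in either direction, so a call by itself sets no gene apart. The median log2 difference was -1.06 over the 9 genes and 0.000991 over all tested genes. In each of the 9 genes both PC3 libraries lay on the same side of both DU145 libraries, which held for 81.9% of all tested genes. In these bulk samples fewer cells of a kind and less RNA per cell cannot be told apart.

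**Figure D1:**
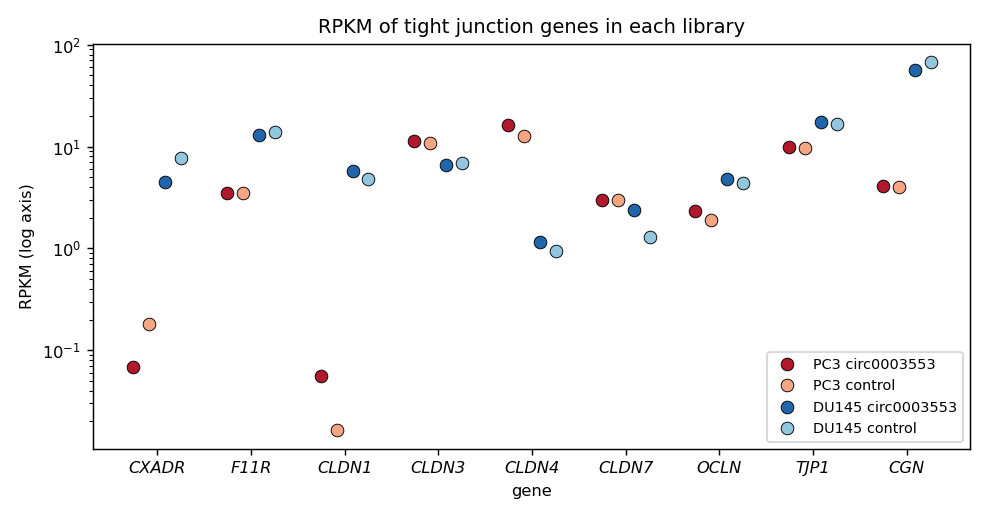
RPKM (counts scaled by exon length and library total, log axis) of the 9 genes in each of the 4 libraries, with 1 point per library. CXADR and CLDN1 lie far lower in both PC3 libraries than in both DU145 libraries, while CLDN4 lies at 16.1 and 12.6 in PC3 against 1.16 and 0.945 in DU145.

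Among the 7 of the 9 genes found in the RefSeq promoter table, the regions upstream of the start are printed for 4, 250 bases or the part that holds no exon base in the deposited annotation. CLDN1 and CGN are shown as genes with large decreases in PC3, CLDN3 as a claudin that was higher in PC3, and TJP1, at its most upstream start, because its region holds a match to a searched motif. The regions are chr3:190322476-190322696 on the minus strand for CLDN1, chr1:151511137-151511386 on the plus strand for CGN, chr7:73770271-73770520 on the minus strand for CLDN3 and chr15:29969050-29969299 on the minus strand for TJP1 (RefSeq, GRCh38.p14). Each is written from 5′ to 3′ along the gene's strand, and capitals mark CAGGTG, the reverse complement of CACCTG.
CLDN1: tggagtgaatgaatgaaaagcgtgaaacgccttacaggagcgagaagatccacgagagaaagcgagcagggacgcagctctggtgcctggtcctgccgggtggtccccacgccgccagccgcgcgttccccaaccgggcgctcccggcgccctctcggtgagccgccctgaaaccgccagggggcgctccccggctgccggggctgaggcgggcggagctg
CGN: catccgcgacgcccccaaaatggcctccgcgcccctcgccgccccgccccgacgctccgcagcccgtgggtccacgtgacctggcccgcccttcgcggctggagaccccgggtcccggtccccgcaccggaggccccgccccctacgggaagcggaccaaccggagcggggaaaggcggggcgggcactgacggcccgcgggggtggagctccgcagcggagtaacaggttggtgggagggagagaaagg
CLDN3: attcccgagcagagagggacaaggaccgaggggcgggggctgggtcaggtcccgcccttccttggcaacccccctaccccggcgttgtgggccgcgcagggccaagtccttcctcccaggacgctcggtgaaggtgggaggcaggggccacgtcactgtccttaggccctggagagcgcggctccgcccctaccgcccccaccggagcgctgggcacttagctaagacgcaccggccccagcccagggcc
TJP1: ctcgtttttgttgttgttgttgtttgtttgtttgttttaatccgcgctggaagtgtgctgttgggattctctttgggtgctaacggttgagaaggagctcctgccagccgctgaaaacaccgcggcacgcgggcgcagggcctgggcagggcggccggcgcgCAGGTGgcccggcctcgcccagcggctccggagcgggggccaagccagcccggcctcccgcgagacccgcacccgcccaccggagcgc

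CACCTG is the E-box sequence bound by the ZEB and Snail repressors of epithelial genes, and AACCGGTT is bound by Grainyhead-like activators. On either strand of the 250 bases upstream of 12 annotated starts, CACCTG was present for 3 of the 7 matched genes: CLDN7 had 4 matches before 1 of its starts, OCLN had 1 before each of its starts, and TJP1 had 1. By region this is 4 of 12, and 17.5% of 35116 RefSeq regions of the same length held it. AACCGGTT was present before none of the 12 starts, against 0.117% of all regions. The regions differed in base composition: that of CGN was 76% G or C with 32 CG dinucleotides, that of CLDN1 68.8% with 28 and that of CLDN3 71.6% with 19, whereas that of CLDN4 was 58.8% with 4, beside medians of 58% and 11 over all regions. A match is only a run of letters in the window. CXADR and F11R are not shown.

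CXADR, the immunoglobulin-type receptor at the junction, lies on chromosome 21 from 17512382 to 17593579 on the plus strand (hg38). It had 18 counts with circ0003553 and 40 with the control plasmid in PC3, against 1084 and 1956 in DU145. As RPKM these are 0.0682 and 0.179 in PC3, against 4.45 and 7.69 in DU145. Both PC3 libraries were above the floor of 3 counts and far lower than both DU145 libraries. CXADR fell by 5.57 ± 0.19 on the log2 scale in PC3 relative to DU145 (SE, n = 2 libraries per line; adjusted p = 2.75e-12, edgeR quasi-likelihood F test), or 47.6-fold, with a 95% interval of -5.97 to -5.17. Between single libraries the level in PC3 was 63.5-fold lower than in DU145 with circ0003553 (95% exact interval 40.0 to 108) and 40.0-fold lower with the control plasmid (29.3 to 56.1). The fitted value moved to -6.39 without the PC3 control library and to -4.99 without the PC3 circ0003553 library, in fits with no plasmid term. The table also lists 3 CXADR pseudogenes, CXADRP1, CXADRP2 and CXADRP3, at 0 to 4 counts in every library.

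F11R, which encodes junctional adhesion molecule A, lies on chromosome 1 from 160995211 to 161021348 on the minus strand. It had 700 counts with circ0003553 and 599 with the control plasmid in PC3, against 2382 and 2678 in DU145. The libraries of a line were close to each other and the lines did not overlap. F11R fell by 1.86 ± 0.11 on the log2 scale in PC3 (adjusted p = 1.28e-09, edgeR quasi-likelihood F test), or 3.62-fold. F11R shares 1853 exon bases, 36.6% of its exon length, with RP11-544M22.13 on the same strand, which had 369 and 331 counts in PC3, against 1792 and 1968 in DU145. Reads from that shared stretch cannot be assigned to 1 of the pair, so the F11R counts are uncertain to that extent.

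The claudins moved in opposite directions. CLDN1, a barrier-forming claudin, lies on chromosome 3 from 190305701 to 190322475 on the minus strand and had 8 counts with circ0003553 and 2 with the control plasmid in PC3, against 761 and 663 in DU145. The PC3 control library was below the floor of 3 counts, so the ratios that rest on it are imprecise. CLDN1 fell by 7.04 ± 0.28 on the log2 scale in PC3 (adjusted p = 2.13e-11, edgeR quasi-likelihood F test), with a 95% interval of -7.65 to -6.44. That p-value is a description only, because CLDN1 passed the filter on low counts through DU145 alone. The level in PC3 was 100-fold lower than in DU145 with circ0003553 (95% exact interval 50.7 to 233) and 271-fold lower with the control plasmid (74.7 to 2243). Without the PC3 circ0003553 library the fitted value was -8.16, which rests on the 2 counts of the control library for PC3.

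CLDN4, a claudin that is also a receptor for Clostridium perfringens enterotoxin, lies on chromosome 7 from 73799542 to 73832693 on the plus strand. It had 2990 counts with circ0003553 and 1981 with the control plasmid in PC3, against 199 and 169 in DU145. Both PC3 libraries were far above both DU145 libraries. CLDN4 rose by 3.84 ± 0.12 on the log2 scale in PC3 (adjusted p = 2.0e-12, edgeR quasi-likelihood F test), or 14.3-fold. CLDN3, the other enterotoxin receptor of the set, lies 29.3 kb away from CLDN4, from 73768997 to 73770270 on the minus strand, and had 565 and 460 counts in PC3, against 308 and 333 in DU145. CLDN3 rose by 0.78 ± 0.14 (adjusted p = 0.000196, edgeR quasi-likelihood F test), or 1.71-fold.

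CLDN7, which in many epithelia is also found along the lateral membrane, lies on chromosome 17 from 7259903 to 7263983 on the minus strand. It had 295 counts with circ0003553 and 248 with the control plasmid in PC3, against 216 and 124 in DU145. The lines did not overlap, but the DU145 libraries were far apart. CLDN7 rose by 0.79 ± 0.21 on the log2 scale in PC3 (adjusted p = 0.00432, edgeR quasi-likelihood F test), or 1.73-fold, and the log2 ratio of single libraries was 0.37 with circ0003553 and 1.28 with the control plasmid. DESeq2 did not make this call (adjusted p = 0.111), and without the DU145 control library the fitted value was 0.37 (adjusted p = 0.112 by the edgeR quasi-likelihood F test). It was also lost without the PC3 circ0003553 library (0.78, adjusted p = 0.0751 by the same edgeR test) and without the PC3 control library (0.77, adjusted p = 0.0721). CLDN7 shares 269 exon bases (10.8% of its exon length) with RP1-4G17.5 and 38 with ELP5, so part of its counts is uncertain.

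The makeup of the claudins therefore differed between the lines. Summed over the 4 claudins, RPKM was 30.4 with circ0003553 and 26.4 with the control plasmid in PC3, against 15.9 and 13.9 in DU145. CLDN4 made up 53.0% and 47.7% of this sum in PC3, against 7.32% and 6.81% in DU145. CLDN1 made up 0.182% and 0.0619% in PC3, against 35.9% and 34.3% in DU145. CLDN3 made up 37.0% and 40.9% in PC3, against 41.8% and 49.5% in DU145. These 4 genes carried 81.5% and 80.3% of the RPKM summed over the 19 listed claudins found in the table in PC3, against 73.3% and 71.4% in DU145. The shares are descriptions of single libraries, with no test.

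**Figure D2:**
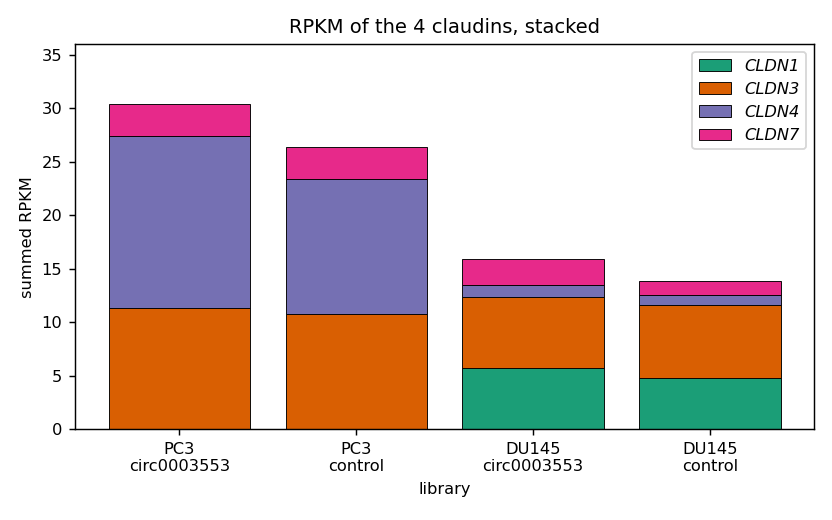
RPKM of CLDN1, CLDN3, CLDN4 and CLDN7 stacked for each library, with 1 bar per library. The PC3 bars consist mostly of CLDN4 and CLDN3 and reach 30.4 and 26.4, and the DU145 bars consist mostly of CLDN3 and CLDN1 and reach 15.9 and 13.9.

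OCLN, which encodes occludin, lies on chromosome 5 from 69492292 to 69558104 on the plus strand. It had 616 counts with circ0003553 and 432 with the control plasmid in PC3, against 1187 and 1137 in DU145. OCLN fell by 1.06 ± 0.12 on the log2 scale in PC3 (adjusted p = 1.61e-06, edgeR quasi-likelihood F test), or 2.09-fold, and the lines did not overlap.

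TJP1, which encodes the scaffold ZO-1, lies on chromosome 15 from 29699367 to 29968865 on the minus strand. It had 4389 counts with circ0003553 and 3617 with the control plasmid in PC3, against 7216 and 7173 in DU145. TJP1 fell by 0.75 ± 0.10 on the log2 scale in PC3 (adjusted p = 7.24e-06, edgeR quasi-likelihood F test), or 1.68-fold, the smallest of the 6 decreases. CGN, which encodes cingulin, a plaque protein that binds ZO-1 and the RhoA activator GEF-H1, lies on chromosome 1 from 151510510 to 151538692 on the plus strand. It had 1080 and 896 counts in PC3, against 13665 and 16867 in DU145. CGN fell by 3.84 ± 0.11 on the log2 scale in PC3 (adjusted p = 6.32e-13, edgeR quasi-likelihood F test), or 14.3-fold.

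**Figure D3:**
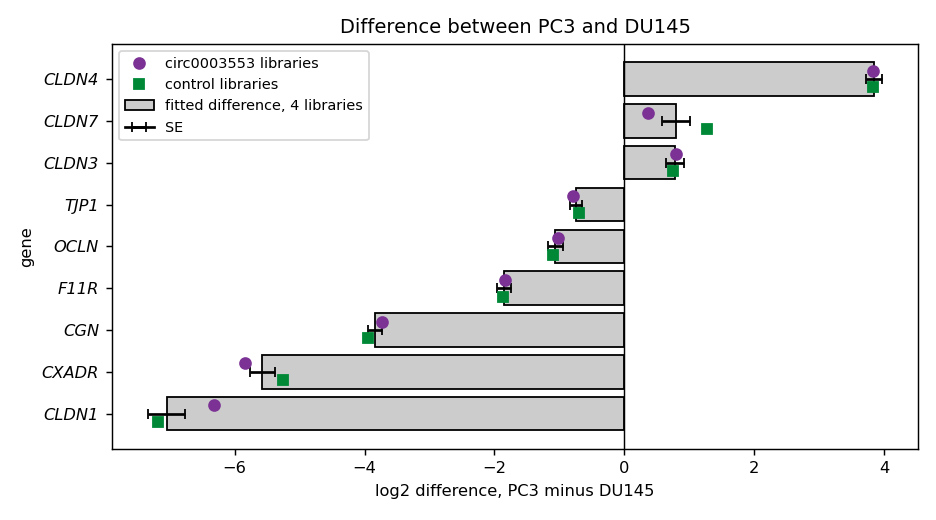
Fitted log2 difference of PC3 minus DU145 for the 9 genes (bars, with SE), and the ratio of single libraries with circ0003553 (circles) and with the control plasmid (squares). CLDN4, CLDN7 and CLDN3 stand above 0 and the other 6 genes below it, and the points of the 2 plasmids lie on the same side of 0 for every gene.

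Ordered by RPKM, the 9 genes fell into a different order in each line. In both PC3 libraries the order from the highest was CLDN4, CLDN3, TJP1, CGN, F11R, CLDN7, OCLN, CXADR and CLDN1. In the DU145 control library it was CGN, TJP1, F11R, CXADR, CLDN3, CLDN1, OCLN, CLDN7 and CLDN4, and in the DU145 circ0003553 library CXADR stood in place 7, with the others in the same order. CGN alone held 8.22% and 8.87% of the summed RPKM of the 9 genes in PC3, against 50.5% and 54.2% in DU145. With 1 library per group the spread of a level is not known, and neighbours such as CLDN1 and OCLN in DU145 (5.70 and 4.82 RPKM with circ0003553, 4.76 and 4.42 with the control plasmid) are not told apart.

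The members' genomic neighbours were described by the 3 nearest tested protein-coding genes on each side. Of the 6 neighbours of CGN, 5 were lower in PC3, among them TUFT1 (tuftelin), which lies 1.61 kb away and had 1042 and 841 counts in PC3, against 15981 and 14031 in DU145. TUFT1 fell by 3.89 on the log2 scale, beside 3.84 for CGN. Of the 6 neighbours of CXADR, 4 were higher and 2 lower in PC3, and BTG3, an antiproliferative gene 0.074 kb away, had 114 and 142 counts in PC3, against 708 and 788 in DU145. The 6 neighbours of F11R and of TJP1 included 5 each that were lower and 0 that were higher. Those of CLDN1 included 1 higher and 3 lower, those of CLDN7 1 higher and 4 lower, and those of OCLN 2 higher and 1 lower. CLDN3 and CLDN4 are neighbours of each other, and the 6 of either, the other claudin included, held 3 that were higher and 1 that was lower. These calls are from the same edgeR fit, in which 33.1% of all genes were higher and 32.9% lower.

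Other genes of the junction were taken from lists chosen by function and not by how they moved, although earlier results of these data were known. The counts of every list below stand beside 33.1% of all tested genes called higher and 32.9% called lower in PC3. Listed genes with few counts in 1 line, among them CLDN14, CLDN18 and CRB3, passed the filter on low counts through the other line. Their p-values are descriptions only, as for CLDN1. Of the 19 other claudins listed, 15 were in the table and 8 were tested: 1 was higher and 4 were lower in PC3, with a median log2 difference of -0.31 beside 0.000991 over all genes. CLDN14, a claudin of the inner ear and kidney, had 275 and 195 counts in PC3, against 11 and 8 in DU145, and rose by 4.70 ± 0.32 on the log2 scale (adjusted p = 7.19e-09, edgeR quasi-likelihood F test). CLDN11, the claudin of myelin and Sertoli cells, fell by 1.01 ± 0.22, with 92 and 82 counts in PC3, against 165 and 214 in DU145. CLDN9 had 0 counts in both PC3 libraries, against 19 and 14 in DU145, which is at least 3.82-fold lower, setting the lowest DU145 library against a floor of 3 counts per PC3 library. CLDN18 had 4 and 4 counts in PC3, against 22 and 13 in DU145, and its call (adjusted p = 0.0154 by the edgeR quasi-likelihood F test) was lost with DESeq2 (0.276) and without 3 of the 4 libraries in turn. Without the DU145 circ0003553 library 2 of the other claudins were called higher and 2 lower, and DESeq2 and halved counts each gave 1 higher and 2 lower.

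The 5 MARVEL and tricellular junction genes included 3 that were lower in PC3 and 0 that were higher, with a median of -3.11. LSR, which encodes angulin-1 of tricellular contacts, had 227 and 197 counts in PC3, against 1918 and 2013 in DU145, and fell by 3.11 ± 0.13 on the log2 scale. MARVELD3 had 10 and 4 counts in PC3, against 266 and 212 in DU145, and its fitted difference of -5.00 moved to -5.62 without the PC3 circ0003553 library. ILDR2 had 0 and 3 counts in PC3, against 130 and 177 in DU145, and its fitted difference of -6.44 moved to -5.38 without the PC3 circ0003553 library. Without the PC3 control library PC3 is left at 0 counts for ILDR2, so that fit gives no usable size. MARVELD2 (tricellulin) had 144 and 102 counts in PC3, against 170 and 153 in DU145, with a fitted difference of -0.31 ± 0.21 that did not pass (adjusted p = 0.207 by the edgeR quasi-likelihood F test), and ILDR1 had 8 to 14 counts and did not pass either.

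The immunoglobulin receptors related to CXADR and to the junctional adhesion molecules gave other counts: of 11 listed genes 7 were tested, with 4 higher and 0 lower in PC3 and a median of 1.13. CLMP, the CXADR-like membrane protein, had 2451 and 1958 counts in PC3, against 474 and 512 in DU145, and rose by 2.26 ± 0.11 on the log2 scale (adjusted p = 2.33e-10, edgeR quasi-likelihood F test). ESAM, an endothelial adhesion molecule, had 130 and 67 counts in PC3, against 24 and 25 in DU145, and rose by 2.06 ± 0.33. IGSF11 had 19 and 10 counts in PC3, against 0 in both DU145 libraries, which is at least 3.80-fold higher by the same kind of floor. Setting CLDN9, IGSF11 or TWIST1 to its bound leaves the median of its list as given. Without the PC3 circ0003553 library 1 gene of the list was called lower.

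Of the 15 tested plaque scaffolds 10 were lower and 0 higher in PC3, with a median of -1.02. AMOTL2, an angiomotin family member, had 1741 and 1255 counts in PC3, against 12047 and 10788 in DU145, and fell by 2.84 ± 0.10 in log2 units (adjusted p = 6.25e-12, edgeR quasi-likelihood F test). CGNL1 (paracingulin) fell by 2.80 ± 0.18, with 124 and 100 counts in PC3, against 650 and 1078 in DU145.

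Of the 15 tested polarity genes 4 were higher and 8 lower in PC3, with a median of -0.43. CRB3, the epithelial Crumbs protein, had 8 and 6 counts in PC3, against 484 and 423 in DU145, and fell by 5.91 ± 0.30 in log2 units (adjusted p = 2.94e-10, edgeR quasi-likelihood F test). PARD3B fell by 2.12 ± 0.16 and PARD6A by 1.42 ± 0.30, the second with a call lost in DESeq2 (adjusted p = 0.0502). PARD3, the scaffold of the PAR complex, rose by 0.98 ± 0.10, PRKCZ, its atypical kinase, by 0.88 ± 0.13 and the GTPase CDC42 by 0.55 ± 0.10.

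Of the 13 actomyosin and RhoA genes 5 were higher and 7 lower in PC3, with a median of -0.28. MYL9, a myosin light chain, had 252 and 208 counts in PC3, against 7151 and 12013 in DU145, and fell by 5.23 ± 0.15 in log2 units (adjusted p = 6.32e-13, edgeR quasi-likelihood F test). ARHGEF2, which encodes the cingulin-bound GEF-H1, fell by 1.94 ± 0.10 and ARHGEF11 by 1.37 ± 0.10. VCL (vinculin) rose by 1.73 ± 0.10, ROCK2 by 0.95 ± 0.10 and ARHGEF18 by 0.51 ± 0.10. Without the PC3 circ0003553 library 2 genes of this list were called higher, and ARHGEF18 did not pass (adjusted p = 0.0586 by the edgeR quasi-likelihood F test).

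Of the 8 tested PDZ partners of CXADR 2 were higher and 4 lower in PC3, with a median of -0.18. The ligand JAML was listed with them but was not found under that symbol, so no CXADR ligand was tested. Of the 4 that were lower, TJP1 is 1 of the 9 genes above, and MAGI1 and MPDZ were also counted among the plaque scaffolds. LNX1, a ubiquitin ligase of the ligand-of-Numb family, rose by 0.89 ± 0.11 and the syntrophin SNTB1 by 0.97 ± 0.16 on the log2 scale, whereas MPDZ (MUPP1) fell by 1.11 ± 0.11 and DLG4 (PSD-95) by 0.77 ± 0.12. The other surface receptors for adenoviruses and coxsackieviruses were split, with 2 higher, 2 lower and 2 not called among 6 and a median of -0.03. This split is near that over all tested genes, with 33.1% higher and 32.9% lower, so it sets the list apart in no way. CD55, the decay-accelerating factor used by some coxsackie B viruses, rose by 1.86 ± 0.10 in PC3. DSG2, a desmosomal cadherin and adenovirus receptor, had 3998 and 3377 counts in PC3, against 13175 and 13583 in DU145, and fell by 1.76 ± 0.10. The integrin subunit ITGB5 fell by 1.14 ± 0.13 and ITGB3 rose by 0.75 ± 0.18, a call that DESeq2 did not make (adjusted p = 0.0702) and that was lost without the PC3 control library (adjusted p = 0.0702 by the edgeR quasi-likelihood F test). CD46 and ITGAV had differences of -0.20 ± 0.10 and 0.15 ± 0.11 and did not pass.

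Of 12 tested transcription factors known to act on junction genes 6 were higher and 3 lower in PC3, with a median of 0.70. TWIST1 had 574 and 383 counts in PC3, against 0 in both DU145 libraries, which is at least 145-fold higher. SNAI2 (Slug) had 1251 and 728 counts in PC3, against 168 and 74 in DU145, and rose by 3.14 ± 0.18 on the log2 scale (adjusted p = 9e-10, edgeR quasi-likelihood F test). Without the DU145 circ0003553 library its fitted difference was 3.87. EHF, an epithelial ETS factor, rose by 3.45 ± 0.38, with 131 and 88 counts in PC3, against 8 and 13 in DU145. The epithelial factors ELF3 and GRHL1 fell by 1.36 ± 0.24 and 1.16 ± 0.19. GRHL3 had 1 and 5 counts in PC3, against 37 and 31 in DU145, and its difference of -3.35 moved to -4.94 without the PC3 control library and to -2.49 without the PC3 circ0003553 library. CDH1, the E-cadherin gene of the neighbouring adherens junction, had 108 and 84 counts in PC3, against 2478 and 4821 in DU145, and fell by 5.06 ± 0.18 (adjusted p = 5.72e-12, edgeR quasi-likelihood F test).

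**Figure D4:**
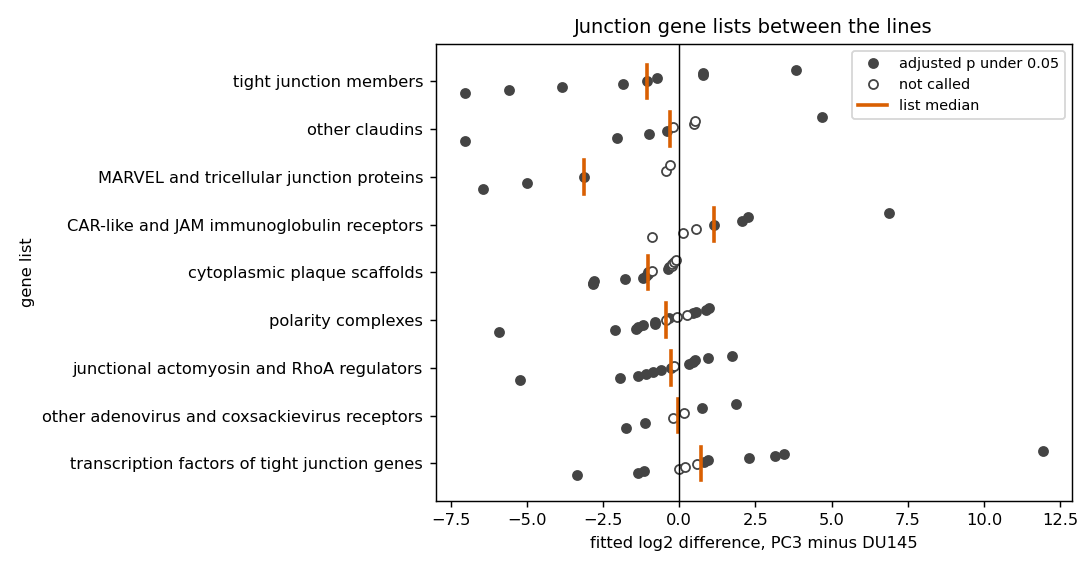
Fitted log2 difference of PC3 minus DU145 for each tested gene of 9 lists, with filled points for genes called at an adjusted p under 0.05 and a bar at the list median. The MARVEL and scaffold lists hold called genes on the lower side alone, with medians of -3.11 and -1.02, and the receptor list on the higher side alone. The outermost points of CLDN9, IGSF11 and TWIST1 stand against a line at 0 counts, and their positions depend on the prior count.

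The second comparison was that of the plasmids. CXADR was chosen by it, so its values are given without a test: it had 18 counts with circ0003553 and 40 with the control plasmid in PC3, and 1084 and 1956 in DU145. With library scaling the level with circ0003553 was 2.67-fold lower in PC3 (95% exact interval 1.50 to 4.95) and 1.68-fold lower in DU145 (1.56 to 1.81). If each read pair had been counted as 2, the PC3 interval would be 1.16 to 6.65. These intervals cover counting error alone and take no account of the choice of CXADR by this fall, so they lend it no support. The fitted log2 difference over both lines was -0.83.

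None of the other 8 genes was called between the plasmids, by the edgeR quasi-likelihood F test (adjusted p from 0.386 to 0.992), by DESeq2 or by limma-voom, beside 0.465% of all genes by the edgeR test (0.396% higher and 0.069% lower with circ0003553). At an unadjusted p under 0.05 by that test, 1 of the 8, CLDN4, passed, or 12.5%, beside 8.88% of all genes. Their fitted log2 differences ranged from -0.11 to 0.39 with a median of 0.13, beside 0.00303 over all genes, with 6 above 0 and 2 below. A difference that was not called is not shown to be absent, and the intervals give the size that the 4 libraries allow.

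CLDN4 had 2990 counts with circ0003553 and 1981 with the control plasmid in PC3, and 199 and 169 in DU145. The ratio was 1.26-fold in PC3 (95% exact interval 1.19 to 1.33) and 1.27-fold in DU145 (1.03 to 1.56), with a fitted log2 difference of 0.33 ± 0.12 (adjusted p = 0.386, edgeR quasi-likelihood F test) and a 95% interval of 0.08 to 0.58. With counts halved, in case each read pair was counted as 2, the interval of the DU145 ratio is 0.936 to 1.71 and includes 1. CLDN7 had a ratio of 0.991 in PC3 (0.834 to 1.18) and 1.87 in DU145 (1.49 to 2.35), and its fitted difference of 0.39 ± 0.21 did not pass (adjusted p = 0.661, edgeR quasi-likelihood F test). Whether the ratio of CLDN7 differs between the lines could not be tested, since that would leave no residual degrees of freedom. CLDN1 had 8 counts with circ0003553 and 2 with the control plasmid in PC3, a ratio of 3.33 with an interval of 0.665 to 32.2, and 761 and 663 counts in DU145, a ratio of 1.23 (1.11 to 1.37).

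OCLN had ratios of 1.19 in PC3 (95% exact interval 1.05 to 1.35) and 1.12 in DU145 (1.03 to 1.22). With counts halved both intervals include 1, at 0.995 to 1.42 in PC3 and 0.997 to 1.26 in DU145. CGN had a ratio near 1 in PC3 (interval 0.918 to 1.10) and 0.870 in DU145 (0.851 to 0.890), where it had 13665 counts with circ0003553 and 16867 with the control plasmid. The fitted difference of CGN was -0.11, with a 95% interval of -0.32 to 0.11. CLDN3, TJP1 and F11R had ratios within 0.955 to 1.08 in both lines. The intervals cover counting error of single libraries and not the spread between cultures.

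**Figure D5:**
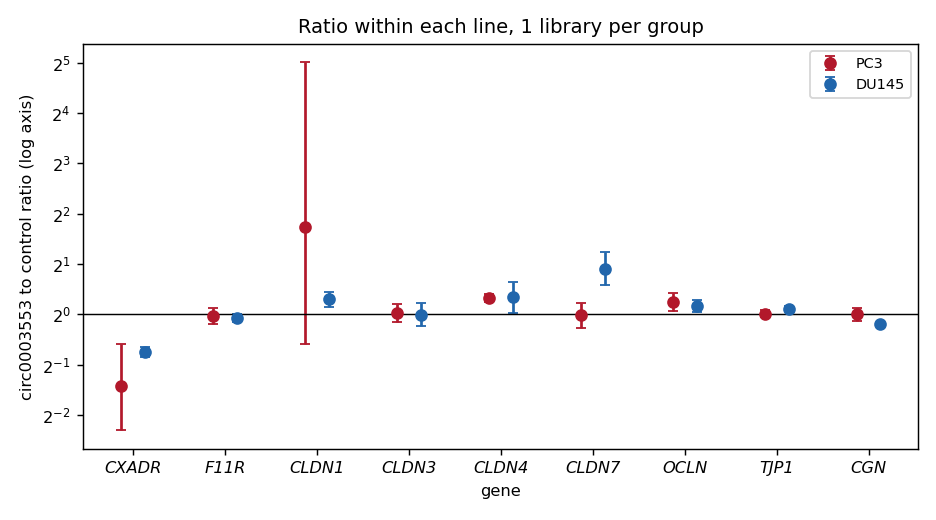
Ratio of the circ0003553 library to the control library within PC3 and within DU145 (log axis), with 95% exact intervals for counting error, for the 9 genes. CXADR is lower with circ0003553 in both lines, at 0.375 in PC3 and 0.595 in DU145, which is how it was chosen. The CXADR intervals take no account of that choice. CLDN1 in PC3 has the widest interval.

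In the other junction lists 1 gene was called between the plasmids, beside 0.465% of all tested genes. It was CD55, 1 of 6 tested genes of the list of other adenovirus and coxsackievirus receptors. The other junction lists with tested genes held 5 to 15 each and gave 0 calls, so a single call sets the lists apart in no way. CD55 had 5397 counts with circ0003553 and 2710 with the control plasmid in PC3, and 1463 and 877 in DU145, and rose by 0.78 ± 0.10 on the log2 scale (adjusted p = 0.00124, edgeR quasi-likelihood F test). The call was lost with no filter on low counts (adjusted p = 0.166 by the same edgeR test) and in the fit without the cell line as a block. None of the 5 epithelial markers was called, and CDH1 had 108 counts with circ0003553 and 84 with the control plasmid in PC3, and 2478 and 4821 in DU145.

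The genes most like CXADR in pattern were sought among 16038 genes with at least 200 counts in all, by the Euclidean distance of centred log2 CPM over the 4 libraries. GPRIN2, which encodes a G protein regulated inducer of neurite outgrowth, was the nearest at a distance of 0.161, with 0 and 2 counts in PC3 and 107 and 188 in DU145 (circ0003553 before control in each line). QPRT, an enzyme of NAD synthesis, followed at 0.286 with 2 and 6 counts in PC3 and 178 and 308 in DU145, then PRUNE2 at 0.286, the tricellular gene ILDR2 at 0.306 and AC002480.3 at 0.308. All 5 combine counts of 23 or fewer in PC3 with a lower count with circ0003553 in each line. The search for the pattern of CXADR selects for both traits, so sharing them is not a separate result. At such counts the prior count of 2 shapes the distance. Of the other 8 junction genes, CGN was the nearest to CXADR, at rank 305 with a distance of 1.99, and CLDN1 came next at rank 377 with 2.25.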

How the data were processed

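Total RNA of 4 libraries, 1 per group, was depleted of ribosomal RNA and made into strand-specific libraries with molecular identifiers, per the labels' protocols. The authors deposited raw counts and RPKM for each gene; hg38, edgeR 3.12.1, featureCounts, Subread 1.5.1 and Trimmomatic 0.36 are listed without a role, per the submitters' processing notes. Which aligner was used, how strand was set in counting and whether identifiers were collapsed is not given in the sources. Deposited RPKM equalled counts divided by exon length and library total. Of count values from 1 to 20, 70.3% to 75.3% were even, so a read pair may often count as 2 and counting intervals may be too narrow.

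Counts were tested with edgeR 4.0.16 (R 4.3.3; quasi-likelihood, TMM scaling, filterByExpr by line, Benjamini-Hochberg over 21731 genes, threshold 0.05) in an additive model of plasmid and line. It leaves 1 residual degree of freedom, with 13.4 prior ones added, so p-values rest mostly on a spread shared across genes (coefficient of variation 0.0972). Each SE is the fitted difference divided by the root of the F statistic. Each line stands as the replicate of the other for the plasmids, and each plasmid for the lines; no label says that cultures were separate beyond this. Within a line or plasmid there is no test: scaled ratios have 95% exact (Clopper-Pearson) intervals for counting error only. Log2 values used a prior count of 2. DESeq2 1.42.0, limma-voom (limma 3.58.1), other scalings, filters, halved counts, genes sharing no exon base and fits without a block or a library were alternatives.

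The members, lists and tests were chosen with earlier results of these data known. Named genes are all 9 members, and of each list the 3 highest and 3 lowest called between lines, those called between plasmids, and whole lists of up to 6 genes. The values of 3 genes that this rule or the marker lists name are not reported here. Genes chosen after their values were seen are the neighbours TUFT1 and BTG3. Promoter sequences are from RefSeq, matched by symbol, and 7 of 9 genes were found.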

Additional observations from a re-analysis of the deposited data

Results flagged for a closer look

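For 3 genes of the junction lists, the circ0003553 library lay on opposite sides of the control library in PC3 and DU145, with intervals for halved counts that leave out 1 in both lines. With 1 library per group the difference between the lines was not tested. The intervals cover counting error alone, and the share of all genes with this pattern was not counted. The epithelial markers EPCAM, KRT18 and KRT19 met the same rule, with log2 ratios of -0.15, -0.07 and -0.13 in PC3. In DU145 their log2 ratios were 0.22, 0.22 and 0.49. ELF3, an epithelial ETS factor, had a log2 ratio of 0.46 in PC3 and -1.02 in DU145, with 307 counts with circ0003553 and 186 with the control plasmid in PC3, and 450 and 983 in DU145. ITGB5, an integrin subunit used by adenoviruses, had a log2 ratio of -0.22 in PC3 and 0.35 in DU145. VASP, an actin regulator at cell junctions, had a log2 ratio of -0.13 in PC3 and 0.11 in DU145.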

How the results depend on the processing

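Between PC3 and DU145, 14332 genes were called, and 7017 (3577 higher, 3440 lower) among the 10814 tested genes sharing no exon base with another, where fewer genes enter. Of the 9 members 8 were called with DESeq2, CLDN7 being lost, 7 of the 7 that share no exon base, and 9 under the other settings with all libraries. Leaving out each library in turn, in fits with no block, gave 11093 to 13522 genes and 8 to 9 members. Directions of the 9 members were the same in all of these fits.

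Between the plasmids the 101 genes called (86 higher, 15 lower) became 9 (9 higher, 0 lower) with no filter on low counts, 63 (52 higher, 11 lower) with DESeq2, 26 (26 and 0) with limma-voom, 53 (50 and 3) with legacy dispersions, 77 (69 and 8) with halved counts and 46 (42 and 4) among genes sharing no exon base; the cause of the first 5 changes was not tested. With no replicate block, here the cell line, 0 genes were called (0 higher, 0 lower), with 26 at an unadjusted p under 0.05 by the edgeR quasi-likelihood F test, and 0 to 0 were called when each library was left out in turn (10 to 18 unadjusted by that test). The labels carry 1 library per group, so no replicate numbers pair them, and the line is the block. In these fits of 3 libraries, 1 plasmid keeps both lines and the other only 1, so the line difference enters by construction and signs turn: the log2 difference between plasmids ran from -5.77 to 3.60 (with 0.21 between) for CXADR, -5.33 to 7.32 (-0.69) for CLDN1, -0.44 to 0.45 (-0.31) for CLDN3, -2.61 to 3.28 (-0.57) for CLDN4, -0.19 to 1.10 for CLDN7, -0.41 to 0.85 (-0.26) for OCLN, -0.38 to 0.47 (-0.23) for TJP1, -1.26 to 1.16 (0.58) for F11R, -3.03 to 2.85 (0.70) for CGN and -0.42 to 2.02 for CD55, the values in brackets being others whose sign turned. Between lines, ITGAV turned to -0.037 without the DU145 circ0003553 library, and the leukocyte marker LYZ to 0.60 without it and to 0.20 without the PC3 control library. Scaling by total counts shifted the median line difference of all genes by -0.07. With 1 library per group, differences within a line have no replicate check.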
